A study of Mus musculus with 59 samples.

Results

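Keratins are the intermediate filament proteins of epithelial cells. A filament is built from dimers of a type I and a type II keratin, and epithelia differ in the pair that they make. KRT8 and KRT18 are the partners of simple epithelia and the earliest keratins of the mouse embryo, where trophectoderm makes them, whereas KRT5 and KRT14 mark basal cells and KRT1 and KRT10 the upper layers of stratified epithelia. The keratin genes were taken as all symbols that consist of Krt and a number, 48 of the 24391 genes listed. Of these, 6 are keratins of simple epithelia, 20 of stratified epithelia, 21 of hair and the inner root sheath, and 1 (*Krt222*) belongs to none of these classes. 4 more symbols that end in a letter were left outside.

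RNA-seq was performed on 6 conditional mouse ESC lines with ERT2-Cre, a Cre recombinase that 4-OHT activates. Each line was sampled without 4-OHT (control) and with it (mutant), as ESCs, pluripotent cells grown on mouse embryonic fibroblasts (MEFs) with LIF and the inhibitors CHIR99021, PD184352 and SU5402, and as EBs, the aggregates formed in 2 days on low attachment dishes without these agents. The comparisons ask how keratin genes changed from ESCs to EBs, and how the loss of parts of the Polycomb complex PRC1, which ubiquitinates histone H2A at its target genes, changed them. In the *Pcgf1* line, controls (ERT2-Cre;Pcgf1f/f, 4 ESC and 5 EB libraries) were compared with *Pcgf1*-KO cells (ERT2-Cre;Pcgf1delta/delta, 5 and 5). PCGF1 is the subunit that defines a variant PRC1.

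In the point mutant line, controls (ERT2-Cre;Ring1apm/pm;Ring1b, 2 and 2 libraries) were compared with cells whose RING1 proteins, the ubiquitin ligases of PRC1, are both mutated (ERT2-Cre;Ring1apm/pm;Ring1bpm/pm, 2 and 2). Both groups of this line carry the *Ring1a* point mutation. The 4 other lines, with 2 libraries a group, are *Ring1A/B* (ERT2-Cre;Ring1a-/- with Ring1bf/f or Ring1bdelta/delta, so that all lack *Ring1a*), *Pcgf2/4* (Pcgf2f/f;Pcgf4f/f or delta/delta at both), *Pcgf3/5* (Pcgf3f/f;Pcgf5f/f or delta/delta at both) and *Pcgf6* (Pcgf6f/f or Pcgf6delta/delta), all with ERT2-Cre. The labels give 1 line per genotype and do not say whether replicates were separate cultures, so the *p*-values measure the spread between libraries, which may be technical.

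Values are TPM, which scales reads by gene length and library size, and each library sums to 1000000. Sequencing depth cannot be read from them, and 6241 to 9139 genes were listed at 0 in the *Pcgf1* line and 6216 to 7342 in the point mutant line. *Pcgf1* itself was at 10.7 to 13.6 TPM in control and 0.627 to 2.77 TPM in knockout ESCs, and at 7.30 to 16.6 and 0.978 to 2.47 TPM in the EBs. The level of *Ring1* (9.11 to 15.6 TPM) or *Rnf2* (54.5 to 85.8 TPM) checks nothing in the point mutant line, since these alleles are point mutations. All 6 naive ESC markers were lower and all 4 formative markers higher in control EBs than ESCs of both lines. Of all genes 13.4% were lower and 11.5% higher there in the *Pcgf1* line, and 2% and 2.73% in the point mutant line. As markers of feeder cells, the TPM of 10 fibroblast genes was summed. In ESCs of the *Pcgf1* line the sum was 219 to 292 for controls and 180 to 241 for knockouts, and in EBs 31.4 to 64.4 and 15.6 to 34.5, with overlapping ranges at both stages. In the point mutant line the sums were 42.8 to 44.2 and 71.1 to 88.2 in ESCs and 29.3 to 32.6 and 66.5 to 69.9 in EBs. Of the 10 genes 4, *Twist2*, *Col1a1*, *Col1a2* and *Thy1*, were higher in mutant EBs of that line, where 3.76% of all genes were. In its mutant ESCs 0 were, where 2.34% of all genes were. In *Pcgf1*-KO EBs 1 of the 10, *Thy1*, was lower, where 0.874% of all genes were. Whether the RNA of these markers came from feeder cells was not tested. In 21 of the 32 libraries of the 4 other lines the condition in the file name differs from the label, and these lines are described last.

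The keratin genes lie in 2 clusters (mm9). Of 46 members with a position, 25 are on chromosome 11, which holds the type I genes, and 21 on chromosome 15, which holds the type II genes and *Krt18*, a type I gene. *Krt8* (chr15:101827142-101834773, minus strand) and *Krt18* (chr15:101858647-101862457, plus strand) are neighbours 23873 bp apart at the end of the type II cluster. *Krt80* (chr15:101177875-101200556) lies at its other end, 40917 bp from *Krt7* (chr15:101241474-101260744), and *Krt83* follows *Krt7* after 1176 bp. *Krt4* and *Krt79* are 4596 bp apart. On chromosome 11, *Krt16*, *Krt17* and *Krt42* are adjacent, with 7254 and 1852 bp between them.

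The 250 bases before the transcription start are shown for the genes whose levels the results turn on, from the RefSeq promoter table (GRCm38.p6), each matched once to mm9. CG dinucleotides, the sites of CpG methylation and the hallmark of CpG islands, which PCGF1-PRC1 binds, are in capitals.
Krt8 (chr15:101834774-101835023, minus strand): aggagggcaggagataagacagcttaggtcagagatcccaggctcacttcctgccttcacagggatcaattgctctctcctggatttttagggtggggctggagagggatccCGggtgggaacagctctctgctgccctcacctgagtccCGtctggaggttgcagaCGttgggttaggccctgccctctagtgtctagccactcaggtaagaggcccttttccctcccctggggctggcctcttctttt
Krt18 (chr15:101858397-101858646, plus strand): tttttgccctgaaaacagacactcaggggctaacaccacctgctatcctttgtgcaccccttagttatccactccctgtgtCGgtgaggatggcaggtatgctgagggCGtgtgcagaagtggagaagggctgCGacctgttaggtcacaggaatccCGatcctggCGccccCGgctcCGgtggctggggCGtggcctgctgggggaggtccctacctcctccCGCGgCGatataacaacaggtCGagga
Krt7 (chr15:101242584-101242833, plus strand): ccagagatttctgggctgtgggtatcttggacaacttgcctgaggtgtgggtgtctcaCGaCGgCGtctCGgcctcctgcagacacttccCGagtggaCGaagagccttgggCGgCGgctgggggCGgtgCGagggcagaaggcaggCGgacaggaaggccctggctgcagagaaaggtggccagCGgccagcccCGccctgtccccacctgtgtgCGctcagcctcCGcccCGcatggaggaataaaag
Krt42 (chr11:100131266-100131515, minus strand): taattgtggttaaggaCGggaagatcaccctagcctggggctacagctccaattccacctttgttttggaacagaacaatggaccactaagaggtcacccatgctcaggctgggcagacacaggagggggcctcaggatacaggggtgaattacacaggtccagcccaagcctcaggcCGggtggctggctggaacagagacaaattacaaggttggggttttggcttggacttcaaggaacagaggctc
Krt12 (chr11:99283574-99283823, minus strand): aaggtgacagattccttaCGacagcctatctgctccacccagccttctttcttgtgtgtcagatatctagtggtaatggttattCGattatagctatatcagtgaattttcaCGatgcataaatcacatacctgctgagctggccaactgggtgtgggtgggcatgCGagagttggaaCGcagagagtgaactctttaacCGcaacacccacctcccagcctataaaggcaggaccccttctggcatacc
The stretch of *Krt7* holds 16 CG dinucleotides and that of *Krt18* 12, against 6 in *Krt12*, 3 in *Krt8* and 2 in *Krt42*. The *Krt7* stretch precedes its protein-coding transcript, inside the annotated gene because another transcript starts further upstream. Over windows from 250 bases before to 50 after the start, the 35 windows of 34 keratin genes had a median of 5 CG dinucleotides (range 2 to 21, the highest in *Krt7*), against 7 in all 32841 windows.

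4 motifs were searched on both strands of these windows. The TATA box TATAAA was present in 18 keratin windows (51.4%) and in 13.6% of all windows. In *Krt12* it begins 29 bases before the start. The GC box GGGCGG, which SP1 binds, was present in 2 keratin windows (5.71%), those of *Krt7* and *Krt75*, and in 35.7% of all. *Krt7* has 4 matches, which begin at -141 and -128 on the gene's strand and at -56 and -24 on the other. The AP-1 motif TGANTCA was found in 2 keratin windows (5.71%) and in 7.81% of all windows, and the Grainyhead motif AACCGGTT in none of the 35 and in 0.146% of all. A match describes letters in the window and no binding.

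Of the 48 keratin genes, 8 were above 0 in all 59 libraries and 1 was listed at 0 in all. 17 reached a mean of 1 TPM in a group, and 6 a mean of 10 TPM in a group of the *Pcgf1* or point mutant line: *Krt8*, *Krt18*, *Krt7* and *Krt19* of simple epithelia, *Krt17*, and *Krt42*, a type I gene next to it. With the members past the threshold below, 21 are named. The 27 others stayed at or below a group mean of 0.995 TPM. Reads can be shared between near-identical keratins: of the named genes, *Krt83* shares 21.1% of its 50-base stretches with other keratins, *Krt14* 14.4%, *Krt16* 11.6% and *Krt27* 11.1%, whereas *Krt17* shares 3.75% and *Krt42* 0.268%. On the other strand an annotated noncoding gene covers 54.1% of the exon bases of *Krt12*, and no source used here states that counting used the strand, so its values may hold reads of both.

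From control ESCs to control EBs of the *Pcgf1* line, *Krt18* rose while *Krt19*, *Krt42*, *Krt7*, *Krt17* and *Krt16* fell. *Krt18* was at 32.1, 26.4, 25.5 and 22.8 TPM in control ESCs and at 82.5, 61.3, 52.2, 99.1 and 96.4 TPM in control EBs. Every EB library lay above every ESC library, a log2 fold change of 1.52 (SE 0.19, adjusted *p* = 1.48e-05, limma). *Krt8*, its partner, was at 21.9, 17.4, 17.6 and 19.5 TPM in control ESCs and at 30.3, 30.5, 32, 16.3 and 16.2 TPM in control EBs. The EB libraries fall on both sides of the ESC libraries, with a log2 fold change of 0.33 (SE 0.21, adjusted *p* = 0.279). By library identifiers the replicates were placed in 3 series: the log2 difference in *Krt8* was 0.47 in the series of replicate 1, 0.83 in that of replicates 2 and 3 and -0.26 in that of 4 and 5, against 1.36, 1.12 and 2.10 in *Krt18*.

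*Krt19*, a small type I keratin of simple epithelia and trophectoderm, fell from 19.7, 17.6, 18.2 and 14.1 TPM to 2.73, 0.844, 2.89, 2.08 and 2.66 TPM (log2 fold change -3.0, SE 0.31, adjusted *p* = 1.6e-06). *Krt7*, a type II keratin of simple and ductal epithelia, fell from 35.1, 21.4, 27.2 and 17.8 TPM to 3.82, 2.92, 3.93, 5.55 and 5.85 TPM (-2.49, SE 0.33, adjusted *p* = 2.18e-05). Neither gene's groups overlapped. *Krt42* fell from 23.6, 22.2, 23.5 and 41.3 TPM to 3.35, 1.5, 1.83, 7.08 and 9.64 TPM (-2.84, SE 0.64, adjusted *p* = 0.0028), and *Krt17*, a keratin of skin appendages and of wounded epidermis, from 9.32, 7.87, 12.4 and 12.6 TPM to 1.14, 2.30, 0.375, 6.61 and 6.55 TPM (-2.19, SE 0.56, adjusted *p* = 0.00714). The highest EB libraries of both genes are replicates 4 and 5, and all EB libraries lay below all ESC libraries. *Krt16*, next to *Krt17*, fell from 1.09 to 2.54 TPM to 0 to 0.371 TPM (-3.09, SE 0.55, adjusted *p* = 0.000407).

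In all, 5 of the 39 keratin genes tested were higher in control EBs, where 11.5% of all genes were, and 6 were lower, where 13.4% of all were. The others that rose were low: *Krt12*, a keratin of corneal epithelium, went from 0 to 0.306 TPM to 2.19 to 3.59 TPM (4.1, SE 0.58, adjusted *p* = 4.23e-05), and *Krt75* (1.82, SE 0.47), *Krt1* (1.55, SE 0.43) and *Krt27* stayed at or below 1.12 TPM in every library of the line. *Krt27* was listed at 0 in all control ESCs and *Krt83* in all control EBs. Over the keratins the median change was 0.01, and -0.0045 over all genes (log2). Without any of 8 libraries *Krt83* was no longer called (highest adjusted *p* 0.136): control ESC replicates 1, 3 and 4 and all 5 control EBs. With replicate number as a block, *Krt13* (-1.48, adjusted *p* = 0.0388) and *Krt71*, a keratin of the inner root sheath (1.09, adjusted *p* = 0.0291), passed as well, for 6 higher and 7 lower keratins, where 20.7% and 23.3% of all genes were. With only the 2 groups compared *Krt17* (adjusted *p* = 0.0563) and *Krt83* (0.0523) did not pass, nor did *Krt83* with a pseudocount of 1 (0.0532). Summed fibroblast markers fell in the same comparison. Of the 10 genes, 4 were called lower (*Col3a1*, *Col1a1*, *Postn* and *Col1a2*) and 2 higher (*Dcn* and *Thy1*), where 13.4% and 11.5% of all genes were. The part of feeder cells in the falls was not tested, and fewer cells of a type and less RNA per cell cannot be told apart in bulk RNA.

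**Figure D1:**
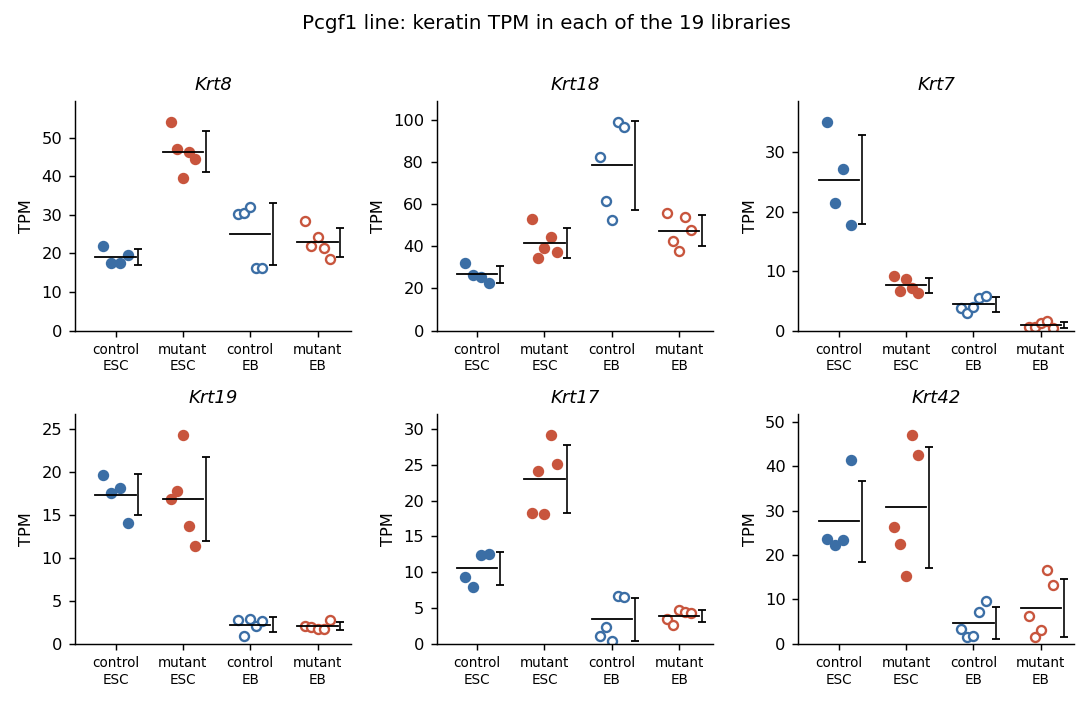
TPM of the 6 keratin genes with the highest levels in the 4 groups of the *Pcgf1* line, each axis starting at 0; a point is a library, the line the group mean and the bar 1 SD. *Krt7* is lower in *Pcgf1*-KO cells at both stages, *Krt8* is higher in *Pcgf1*-KO ESCs, and *Krt18* is highest in control EBs.

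Without PCGF1, the rise of *Krt18* was not detected and *Krt8* fell instead. *Krt18* was at 53.0, 34.4, 39.2, 44.2 and 37.0 TPM in *Pcgf1*-KO ESCs and at 55.6, 42.6, 37.7, 53.7 and 47.7 TPM in *Pcgf1*-KO EBs, with overlapping groups (0.19, SE 0.18, adjusted *p* = 0.538). *Krt8* went from 54.2, 47.1, 39.5, 46.4 and 44.6 TPM to 28.5, 21.9, 24.3, 21.3 and 18.6 TPM, so that all EB libraries lay below all ESC libraries (-1.02, SE 0.19, adjusted *p* = 0.000946). The interaction, the difference between the ESC to EB changes of *Pcgf1*-KO and control cells, was -1.32 (SE 0.26, adjusted *p* = 0.116) for *Krt18* and -1.35 (SE 0.28, adjusted *p* = 0.154) for *Krt8*. No keratin gene passed here, where 0.00486% of all genes did, and 5 of 39 had an unadjusted *p* under 0.05, as had 5.8% of all genes. With replicate number as a block, 2 of 39 passed, where 1.62% of all genes did: *Krt18* (-1.3, adjusted *p* = 0.00543) and *Krt8* (-1.42, adjusted *p* = 0.00695). The summed TPM of the 4 formative markers was 1029 to 2950 in control and 323 to 1753 in *Pcgf1*-KO EBs, with none of the 4 past the threshold (median -1.09). Of the 6 naive markers 1, *Tfcp2l1*, was higher in *Pcgf1*-KO than control EBs (1.52, SE 0.34, adjusted *p* = 0.0237), where 1.08% of all genes were. The median over the 6 was 1.31. The part of these marker differences in the keratin levels was not tested.

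The falls of the other main keratins were also found in *Pcgf1*-KO cells. The log2 fold change was -3.12 for *Krt7* (SE 0.31, adjusted *p* = 1.2e-06), -2.94 for *Krt19* (SE 0.29), -2.68 for *Krt16* (SE 0.52), -2.54 for *Krt17* (SE 0.53) and -2.28 for *Krt42* (SE 0.60). *Krt14*, the keratin of basal cells, fell from 1.46 to 2.09 TPM to 0.536 to 0.827 TPM (-1.32, SE 0.34, adjusted *p* = 0.00946). In all, 9 keratin genes were lower and 1, *Krt12*, was higher (3.24, SE 0.54), where 10.2% and 8.13% of all genes were. *Krt13* and *Krt80* are the other 2 that fell, and both were listed at 0 in every *Pcgf1*-KO EB library. The median over the keratins was -0.20, and 0.00 over all genes. Without *Pcgf1*-KO ESC replicate 3, *Krt80* did not pass (adjusted *p* = 0.0659), nor with a pseudocount of 1 (0.338). With the replicate block *Krt83*, listed at 0 in all EBs of the line, was called too (adjusted *p* = 0.0427), where 20% of all genes were lower.

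In *Pcgf1*-KO ESCs, *Krt8* was higher and *Krt7* and *Krt80* were lower than in control ESCs. Mutants and controls also differ in 4-OHT itself, which cannot be told apart from the deletion. *Krt8* was at 39.5 to 54.2 TPM in *Pcgf1*-KO ESCs and 17.4 to 21.9 TPM in controls, with no overlap (1.27, SE 0.21, adjusted *p* = 0.00745), and it was higher in all 4 same-numbered pairs, by 1.16 to 1.43 on the log2 scale. *Krt7* was at 9.20, 6.71, 8.64, 7.15 and 6.36 TPM in *Pcgf1*-KO ESCs, below every control (-1.69, SE 0.33, adjusted *p* = 0.0239). *Krt80*, a type II keratin found in many epithelia, was at 0, 0.261, 0.927, 0.256 and 0.203 TPM against 1.39, 1.68, 4.16 and 1.78 TPM in controls (-2.69, SE 0.54, adjusted *p* = 0.0271). That is 1 gene higher and 2 lower of 39, where 0.32% of all genes were higher and 0.32% lower. Leaving out any of 6 of the 19 libraries in turn ended the call of *Krt7* and of *Krt80* (control ESC replicates 1, 2 and 3 and *Pcgf1*-KO ESC replicates 2, 4 and 5, highest adjusted *p* 0.0920 and 0.126). With only the 2 groups compared *Krt80* did not pass (0.118). *Krt8* passed without any of the 19.

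*Krt18* was higher in *Pcgf1*-KO ESCs by 0.63 (SE 0.19, adjusted *p* = 0.195), and by 0.61 with the replicate block, where it passed (adjusted *p* = 0.0223) and 2.53% of all genes were higher. *Krt17* was at 18.3, 24.2, 18.1, 29.2 and 25.1 TPM, above every control ESC library, but did not pass (1.12, SE 0.56, adjusted *p* = 0.61), nor with the block (adjusted *p* = 0.301). *Krt19* (16.8, 17.9, 24.4, 13.8 and 11.4 TPM) and *Krt42* (26.2, 22.4, 15.2, 47.1 and 42.6 TPM) overlapped with their controls. The ratio of *Krt18* to *Krt8* TPM was 0.896 ± 0.113 (SD, n = 5) in *Pcgf1*-KO ESCs and 1.4 ± 0.157 (SD, n = 4) in control ESCs, and 2.11 ± 0.431 (n = 5) in *Pcgf1*-KO EBs and 3.68 ± 2.17 (n = 5) in control EBs. The ranges of the ratio did not overlap in ESCs and did in EBs.

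In *Pcgf1*-KO EBs, *Krt7*, *Krt80* and *Krt1* were lower than in control EBs. *Krt7* was at 0.539, 0.561, 1.20, 1.61 and 0.464 TPM in *Pcgf1*-KO EBs, below every control EB library (-2.31, SE 0.31, adjusted *p* = 0.000846). *Krt80*, its neighbour in the cluster, was listed at 0 in all 5 *Pcgf1*-KO EB libraries and at 1.14, 3.27, 1.28, 0.805 and 0.686 TPM in controls (adjusted *p* = 0.000976). *Krt1*, a keratin of the upper epidermis, was at 0 in 4 *Pcgf1*-KO EB libraries and 0.226 TPM in replicate 5, against 0.187 to 0.486 TPM in controls (-1.67, SE 0.40, adjusted *p* = 0.0363). Of 39 keratin genes, 3 were lower and 0 higher, where 0.874% of all genes were lower and 1.08% higher. 9 had an unadjusted *p* under 0.05, as had 12% of all genes, and the median was -0.22, against -0.03 over all genes. With only the 2 groups compared *Krt1* did not pass (adjusted *p* = 0.116).

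With the replicate block 6 keratins were lower in *Pcgf1*-KO EBs, where 5.58% of all genes were, the 3 above and *Krt18* (-0.69, adjusted *p* = 0.00371), *Krt75* (adjusted *p* = 0.0417) and *Krt27* (adjusted *p* = 0.0421). Without the block *Krt18* had an adjusted *p* of 0.058. It was lower in all 5 same-numbered pairs, with log2 differences of -1.01 to -0.47. *Krt8* was within the range of its controls (-0.08, SE 0.19, adjusted *p* = 0.995). *Krt79* was listed at 0 in all 5 *Pcgf1*-KO EB libraries and above 0 in 4 of the 5 controls (adjusted *p* = 0.108). Without 1 of 9 libraries *Krt1* was no longer called (highest adjusted *p* 0.107), among them replicates 1 to 4 of both EB groups, whereas *Krt7* and *Krt80* passed without any of the 19.

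The sum of all keratin TPM overlapped between control ESCs and control EBs, while its makeup differed. It was 137 ± 12.4 TPM for control (SD, n = 4) and 174 ± 18.6 for knockout ESCs (n = 5), and 131 ± 21 for control and 91.6 ± 13.5 for knockout EBs (n = 5 each). *Krt8* and *Krt18* together made up 33.4% ± 2.99 of it for control and 50.5% ± 4.88 for knockout ESCs, and 79.2% ± 3.45 and 77.2% ± 6.07 for the EBs. The share of *Krt7* was 18.4% ± 4.42 in control ESCs and 4.41% ± 0.898 in *Pcgf1*-KO ESCs, and 3.34% ± 0.586 and 0.962% ± 0.531 in the EBs. These shares are given as descriptions without a test.

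**Figure D2:**
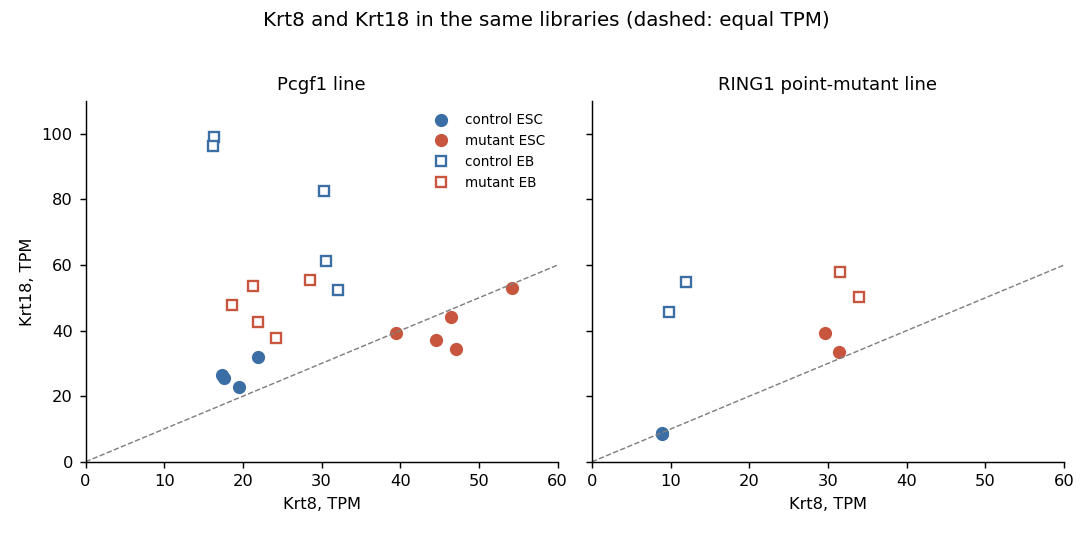
TPM of *Krt8* (x axis) and *Krt18* (y axis) in each library of the *Pcgf1* line and of the point mutant line, with equal levels on the dashed line. Control EB replicates 1, 4 and 5 in the *Pcgf1* panel and both control EBs in the point mutant panel lie farthest above the line, and mutant ESCs lie to the right of control ESCs.

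In the controls of the point mutant line, *Krt18* again rose from ESCs to EBs, and *Krt8* did not pass. *Krt18* was at 8.4 and 8.83 TPM in control ESCs and 45.7 and 54.7 TPM in control EBs (2.52, SE 0.17, adjusted *p* = 0.0012), and this call held without any of the 8 libraries. *Krt8* was at 8.90 and 8.93 TPM and at 9.84 and 11.9 TPM (0.28, SE 0.17, adjusted *p* = 0.412). *Krt42* fell from 20.3 and 33.9 TPM to 9.03 and 6.37 TPM (-1.78, SE 0.32, adjusted *p* = 0.0262). *Krt74*, a keratin of the inner root sheath, was at 0.208 and 0.197 TPM in control ESCs and listed at 0 in the other 6 libraries (adjusted *p* = 0.034). Of 43 keratin genes tested, 1 was higher and 2 were lower, where 2.73% and 2% of all genes were. The call of *Krt42* was lost without any single one of the 8 libraries (highest adjusted *p* 0.191), and that of *Krt74* without any of the 4 control libraries (0.110).

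*Krt7* and *Krt19*, which fell in controls of the *Pcgf1* line, did not fall here. *Krt7* was at 0.940 and 1.38 TPM in control ESCs and 3.93 and 2.70 TPM in control EBs (1.43, SE 0.36, adjusted *p* = 0.0728), and *Krt19* at 2.17 and 9.80 TPM and at 5.20 and 12.5 TPM (0.78, SE 0.68, adjusted *p* = 0.565). The difference between the lines, fitted over all 27 libraries, was 3.93 for *Krt7* (SE 0.56, adjusted *p* = 0.000362) and 3.78 for *Krt19* (SE 0.67, adjusted *p* = 0.00293). With *Krt74*, listed at 0 throughout the *Pcgf1* line, 3 of 46 keratins differed, where 3.48% of all genes did. Each line is its own set of libraries, and the line and the set cannot be told apart. Control ESCs of the *Pcgf1* line had a higher sum of the fibroblast markers (219 to 292 against 42.8 to 44.2 TPM). The part of feeder cells in this difference between lines was not tested.

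**Figure D3:**
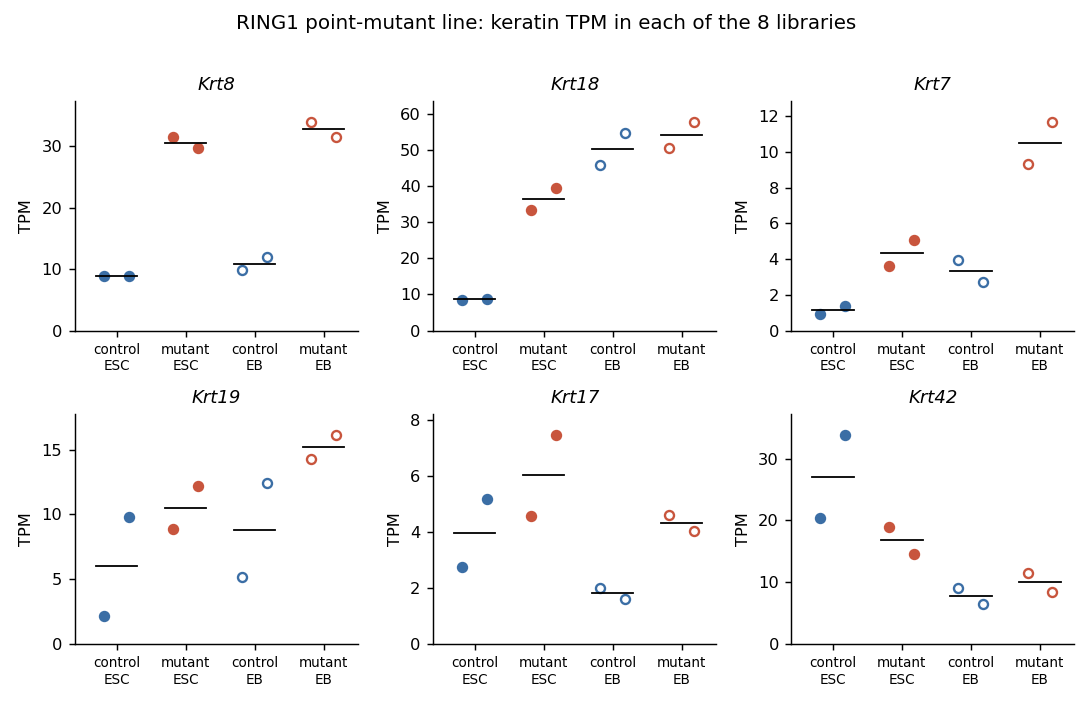
TPM of the same 6 keratin genes in the 8 libraries of the point mutant line, each axis starting at 0; a point is a library and the line the mean of 2. *Krt8* and *Krt7* are higher in mutant cells at both stages, and *Krt18* is lower in control ESCs than in the 3 other groups.

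In mutant ESCs of this line, *Krt18*, *Krt8*, *Krt79* and *Krt7* were higher than in control ESCs. *Krt18* was at 33.4 and 39.4 TPM in mutant ESCs (2.06, SE 0.17, adjusted *p* = 0.00714) and *Krt8* at 31.4 and 29.7 TPM (1.76, SE 0.17, adjusted *p* = 0.00882), both above the controls given before. *Krt79*, a type II keratin of hair follicle and sebaceous duct cells, was at 4.87 and 4.41 TPM in mutant and 0.948 and 0.448 TPM in control ESCs (2.64, SE 0.41, adjusted *p* = 0.0262). *Krt7* rose to 3.6 and 5.09 TPM (1.82, SE 0.36, adjusted *p* = 0.0485). These 4 were higher and *Krt74* lower (adjusted *p* = 0.046), of 43, where 2.34% of all genes were higher and 0.197% lower. The median was 0.40 over the keratins and 0.12 over all genes.

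In EBs of this line *Krt8*, *Krt79* and *Krt7* were higher in mutants too, with *Krt83* and *Krt4*. *Krt8* was at 34.0 and 31.5 TPM (1.58, SE 0.17, adjusted *p* = 0.0104), *Krt79* at 5.85 and 6.67 TPM against 0.942 and 1.24 TPM in control EBs (2.42, SE 0.41, adjusted *p* = 0.0245), and *Krt7* at 9.32 and 11.7 TPM (1.65, SE 0.36, adjusted *p* = 0.0491). *Krt83*, a hair keratin next to *Krt7*, was at 0.687 and 1.41 TPM (adjusted *p* = 0.0121) and *Krt4*, a keratin of oesophageal epithelium next to *Krt79*, at 0.654 and 1.35 TPM (adjusted *p* = 0.0309), where both were listed at 0 in control EBs. *Krt18* did not pass, at 50.4 and 57.7 TPM against 45.7 and 54.7 TPM (0.11, SE 0.17, adjusted *p* = 0.772). In all 5 of 43 were higher and 0 lower, where 3.76% and 0.764% of all genes were, and the median was 0.36 over the keratins and 0.10 over all genes.

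Calls between mutant and control cells of this line rest on 2 libraries a group and on the spread pooled over its 4 groups: with only the 2 groups compared, 0 keratin genes passed in ESCs and 1, *Krt8*, in EBs. The share of all genes that passed in this setting is not given, so these counts do not compare keratins with other genes. The call of *Krt7* was also lost under median-of-ratios scaling in ESCs (1.68, adjusted *p* = 0.0591) and EBs (1.52, adjusted *p* = 0.0567), and in ESCs with a pseudocount of 1 (adjusted *p* = 0.0736), as were those of *Krt74* in ESCs (0.0616) and *Krt4* in EBs (0.0727). In ESCs, *Krt18* was no longer called without control ESC replicate 1 or 2 or mutant ESC replicate 2 (highest adjusted *p* 0.0597), *Krt8* without any of 6 libraries (0.0854), both control EBs apart, and *Krt79* (0.177), *Krt7* (0.274) and *Krt74* (0.127) without any of the 8. In EBs, *Krt8* was no longer called without mutant ESC replicate 1 or 2, control EB replicate 1 or mutant EB replicate 1 (0.0673), *Krt83* without either mutant ESC or control EB library (0.0770), *Krt79* without any of 6 (0.136), both control ESCs apart, and *Krt7* (0.171) and *Krt4* (0.163) without any of the 8. In mutant against control EBs of this line 3 of the 6 naive markers were higher, where 3.76% of all genes were. Of the 4 formative markers 3, *Otx2*, *Pou3f1* and *Fgf5*, were lower, where 0.764% were. The part of these markers, or of the fibroblast markers given before, in the keratin levels was not tested. From mutant ESCs to mutant EBs no keratin gene passed by limma, where 0.0493% of all genes were higher and 0.0838% lower, and 7 of 43 had an unadjusted *p* under 0.05, as had 9.73% of all genes. *Krt18* differed by 0.57 there (SE 0.17, adjusted *p* = 0.357), and its interaction was -1.95 (SE 0.24, adjusted *p* = 0.0732). No keratin passed the interaction, where 0.00986% of all genes did, and 3 had an unadjusted *p* under 0.05, as had 5.31% of all genes.

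*Krt19*, *Krt17* and *Krt42* did not pass between mutant and control cells of this line at either stage. *Krt19* was at 8.85 and 12.2 TPM in mutant ESCs and 14.3 and 16.2 TPM in mutant EBs, *Krt17* at 4.57 and 7.47 TPM and at 4.61 and 4.02 TPM, and *Krt42* at 19 and 14.6 TPM and at 11.4 and 8.45 TPM. For *Krt17*, control libraries were at 2.74 and 5.18 TPM (ESCs) and 2.01 and 1.60 TPM (EBs). *Krt8* and *Krt18* together were 27.5% of all keratin TPM in control ESCs, 56.2% in mutant ESCs, 65.7% in control EBs and 59.8% in mutant EBs (means, n = 2 each).

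*Krt7* moved in opposite directions in the 2 lines. In ESCs the mutant minus control change was -1.69 in the *Pcgf1* line and 1.82 in the point mutant line, a difference of 3.51 (SE 0.56, adjusted *p* = 0.00165), and in EBs it was -2.31 and 1.65, a difference of 3.96 (SE 0.55, adjusted *p* = 0.000517). These 2 calls held without any of the 27 libraries. In controls the gene was at 17.8 to 35.1 TPM in ESCs of the *Pcgf1* line and at 0.940 and 1.38 TPM in ESCs of the point mutant line. *Krt8* rose in ESCs of both lines, and the difference in EBs was 1.66 (SE 0.33, adjusted *p* = 0.00936). It was no longer past the threshold without control EB replicate 1 of the point mutant line (adjusted *p* = 0.0528).

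*Krt18* differed between the lines in ESCs (1.43, SE 0.32, adjusted *p* = 0.0279), with changes of 0.63 and 2.06. This call was lost without any of the 4 ESC libraries of the point mutant line (highest adjusted *p* 0.106) and under median-of-ratios scaling (1.26). In EBs *Krt79* (adjusted *p* = 0.0272), *Krt4* (adjusted *p* = 0.0182) and *Krt83* (adjusted *p* = 0.00565) differed too. *Krt79* was listed at 0 in *Pcgf1*-KO EBs and rose in point mutant EBs, and its call was lost without any of the 4 EB libraries of that line (highest adjusted *p* 0.117) and among genes with a mean of at least 1 TPM (0.0561). That of *Krt4* was lost without either control EB library or mutant EB replicate 2 (0.112). *Krt34* differed at both stages and *Krt72* in ESCs, hair and inner root sheath keratins at or below 0.192 TPM in the point mutant line and listed at 0 in the other. With *Krt74*, 5 of 46 keratin genes differed in ESCs, where 0.968% of all genes did, and 6 in EBs, where 2.14% did.

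**Figure D4:**
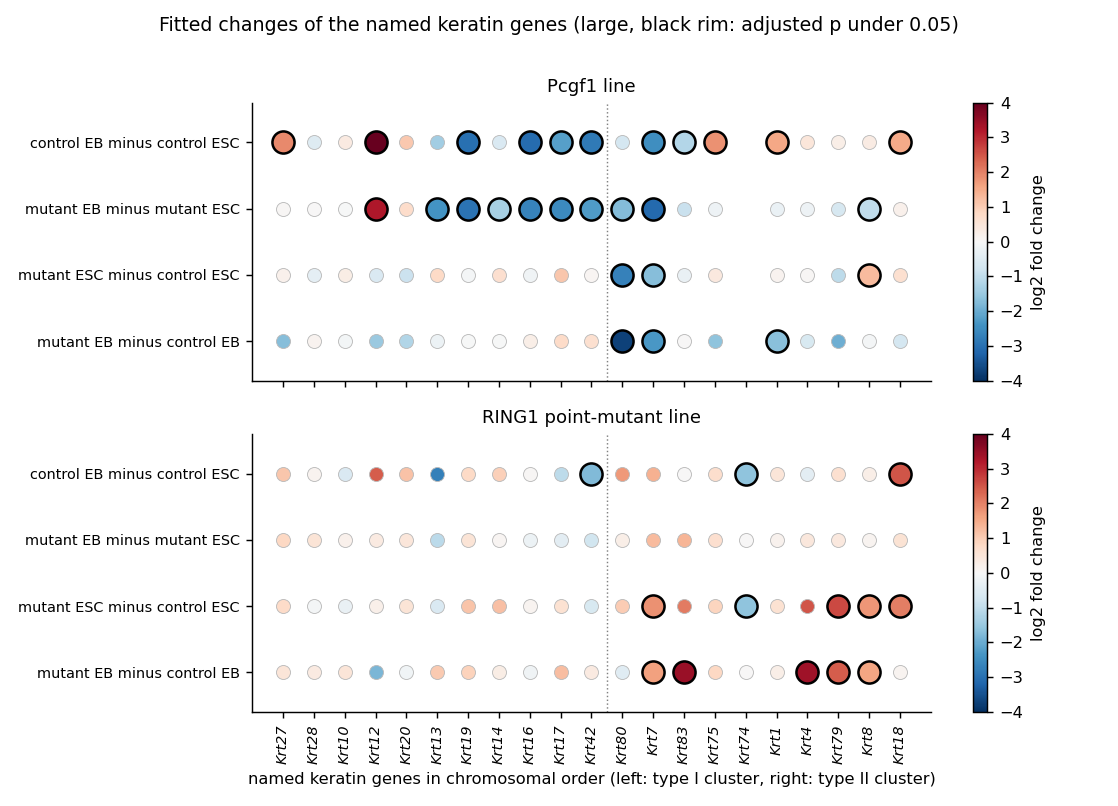
Fitted log2 fold changes (colour, from -4 to 4) of the 21 named keratin genes in their order along the type I cluster of chromosome 11 and the type II cluster of chromosome 15, in 4 comparisons of each line. Large points with a black rim are called; *Krt80* and *Krt7*, neighbours at the left of the type II cluster, are both lower in *Pcgf1*-KO cells, and where a group is listed at 0 the colour depends on the pseudocount.

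Among genes that work with keratins, *Perp*, which encodes a desmosome protein, was higher in mutant ESCs of both lines. It was at 34.9 ± 6.71 TPM (SD, n = 5) in *Pcgf1*-KO and 8.68 ± 3.52 TPM (n = 4) in control ESCs (2.07, SE 0.33, adjusted *p* = 0.00745), and it rose by 1.3 (SE 0.19, adjusted *p* = 0.0245) in point mutant ESCs. Of 11 desmosome genes 0 were higher and 2, *Dsp* (-1.76, SE 0.44) and *Dsg2* (-1.86, SE 0.28), were lower in control EBs than ESCs of the *Pcgf1* line, where 11.5% and 13.4% of all genes were. Desmosomes anchor keratin filaments at cell contacts. In *Pcgf1*-KO cells against controls 1 of the 11 was higher in ESCs and 0 in EBs, where 0.32% and 1.08% of all genes were, and in point mutant cells 2 were higher at each stage, *Perp* with *Dsc3* and with *Pkp3*, where 2.34% and 3.76% were.

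Of 12 regulators of epithelial genes, 5 were higher and 6 lower in control EBs than ESCs of the *Pcgf1* line, against 11.5% and 13.4% of all genes. *Grhl2*, a Grainyhead factor of epithelial cells, rose from 4.19 to 35.8 TPM in the mean (3.00, SE 0.37, adjusted *p* = 9.6e-06), and *Klf5* fell from 673 to 72.0 TPM (-3.11, SE 0.69, adjusted *p* = 0.00259). None of the 12 passed between *Pcgf1*-KO and control cells at either stage, while 3 (*Grhl1*, *Ovol1* and *Esrp1*) were higher in point mutant ESCs and 2 (*Elf3* and *Klf4*) in point mutant EBs, where 2.34% and 3.76% of all genes were. Of 9 epithelial adhesion genes, *Epcam* and *Cldn6* rose from control ESCs to EBs in both lines, by 1.25 (SE 0.19) and 1.55 (SE 0.17) in the *Pcgf1* line and by 2.48 (SE 0.14) and 2.07 (SE 0.20) in the point mutant line. In all 2 and 3 of the 9 rose there, where 11.5% and 2.73% of all genes did, and 1, *Cldn4*, fell in the *Pcgf1* line, where 13.4% did. *Cldn6*, a tight junction protein of early epithelia, also rose in mutant ESCs, by 1.05 (SE 0.17, adjusted *p* = 0.00745) and 2.41 (SE 0.20, adjusted *p* = 0.00714). It was the only 1 of the 9 to rise in *Pcgf1*-KO ESCs, where 0.32% of all genes did. In point mutant ESCs 4 of the 9 rose, with *Cldn7*, *Epcam* and *Marveld3*, where 2.34% of all genes did.

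Among 13 other intermediate filament genes, *Vim*, the filament protein of mesenchymal cells, and *Lmna*, which encodes nuclear lamins, fell from control ESCs to EBs in both lines, with log2 fold changes of -1.47 (SE 0.23) and -2.17 (SE 0.22) in the *Pcgf1* line and -1.62 (SE 0.20) and -1.09 (SE 0.23) in the point mutant line. They are 2 of 3 and 2 of 2 of the 13 that fell, where 13.4% and 2% of all genes did. In the same comparison 3 of the 13, *Nefh*, *Prph* and *Ina*, rose in the *Pcgf1* line, where 11.5% of all genes did. In the point mutant line 1, *Ina*, rose, where 2.73% did. Between mutant and control cells of that line *Nes* was higher and *Vim* lower in ESCs (2.34% and 0.197% of all genes). *Des*, *Nefh* and *Nes* were higher in EBs (3.76%). *Lmna* was higher in *Pcgf1*-KO ESCs (1.08, SE 0.22, adjusted *p* = 0.0267) and EBs (0.82, SE 0.20, adjusted *p* = 0.0447), 1 of 3 and 1 of 1 of the 13 that were higher there, where 0.32% and 1.08% of all genes were. Of 8 linkers and partners of keratins, *Krtcap3* rose and *Eppk1*, an epiplakin that binds keratin filaments, fell from ESCs to EBs in controls of the *Pcgf1* line (11.5% and 13.4% of all genes), and *Evpl* rose in point mutant ESCs (2.14, SE 0.36, adjusted *p* = 0.031), where 2.34% of all genes did.

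Other cell types that make keratins were followed by their markers. The summed TPM of 6 primitive endoderm genes was 4.07 to 8.01 in control ESCs and 3.92 to 10.2 in *Pcgf1*-KO ESCs, where *Krt8* rose. It was 4.96 to 6.18 and 23.7 to 25.2 in ESCs of the point mutant line. There 2 of the 6, *Gata4* and *Gata6*, were higher in mutants, where 2.34% of all genes were. In EBs the sum was 6.83 to 18.7 and 8.38 to 22.7 in the *Pcgf1* line and 13.6 to 18.4 and 30.6 to 33.6 in the point mutant line. Of the 6, *Gata4* (1.4, SE 0.34) and *Gata6* (2.6, SE 0.57) were higher in *Pcgf1*-KO EBs, where 1.08% of all genes were. In point mutant EBs 1 of the 6, *Gata6* (1.61, SE 0.28), was higher, where 3.76% were. From control ESCs to EBs 1 of the 6, *Dab2*, rose in both lines, where 11.5% and 2.73% of all genes did. *Sox17* fell in the *Pcgf1* line, where 13.4% did. Of 8 trophoblast genes the sum was 62.1 to 120 in control and 36.8 to 86.6 in *Pcgf1*-KO ESCs, and 22.5 to 46.4 and 10.9 to 26.9 in the EBs. None of the 8 passed between *Pcgf1*-KO and control cells at either stage. From ESCs to EBs 2 of the 8, *Gata3* and *Tfap2c*, fell in control and in *Pcgf1*-KO cells, where 13.4% and 10.2% of all genes did. In the point mutant line the sum was 32.1 to 46.2 and 34.2 to 57.0 in ESCs and 14.1 to 29.8 and 49.9 to 69.3 in EBs. *Hand1* was higher in mutant ESCs, and *Hand1*, *Gata3* and *Plac1* in mutant EBs, where 2.34% and 3.76% of all genes were. The sum of 5 surface ectoderm genes was 2.77 to 4.46 in control and 6.17 to 7.92 in *Pcgf1*-KO ESCs. There 1 of the 5, *Wnt6*, was higher, where 0.32% of all genes were. From control ESCs to EBs of that line 1 of the 5, *Dlx5*, rose and 1, *Tfap2a*, fell, where 11.5% and 13.4% of all genes did. In the point mutant line the sum was 4.53 to 8.30 and 13.4 to 13.8 in ESCs and 3.97 to 4.82 and 12.9 to 15 in EBs, and none of the 5 passed. *Elf5*, which defines trophoblast stem cells, was listed at 0 in both EB groups of the *Pcgf1* line. The part of such cells in the keratin changes was not tested.

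In the 4 other lines, *Fgf5*, a marker of EBs, was at 0 to 35.2 TPM in libraries labelled ESC and 0 to 46.3 TPM in libraries labelled EB. By the stage in the file name it was at 0 to 0.816 TPM in ESC and 7.53 to 46.3 TPM in EB libraries. The stage differs between label and file name in 14 of the 32. By label, in *Ring1A/B* cells 14 of 41 keratin genes passed for control EBs against ESCs (43.2% of all genes), 12 for mutant EBs against ESCs (56.5%), 16 for mutant against control ESCs (48.8%) and 16 for mutant against control EBs (33.3%). No keratin passed by limma in *Pcgf2/4* (0% of all genes in each comparison) or *Pcgf6* (0% in each), nor in *Pcgf3/5* cells (0.0601%, 0%, 0.0401% and 0.0301%). At an unadjusted *p* under 0.05, in the order of comparisons given for *Ring1A/B* cells, there were 3, 3, 2 and 1 of 36 in *Pcgf2/4* cells (1.24%, 1.49%, 0.862% and 0.987% of all genes). In *Pcgf3/5* cells there were 6, 1, 1 and 1 of 38 (12.7%, 1.58%, 1.41% and 2.1%), and in *Pcgf6* cells 12, 10, 0 and 0 of 42 (5.38%, 5.72%, 0.599% and 1.03%). As label and file name disagree here, no direction is drawn for mutants of these lines.

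In the libraries whose label and file name give the same stage, a choice made with earlier results known, *Krt18* and *Krt8* were higher and *Krt42* and *Krt17* lower in EBs than ESCs of all 4 lines. *Krt18* differed most in *Pcgf3/5* cells, at 8.80 to 11.6 TPM in 3 ESC and 99.96 to 116 TPM in 3 EB libraries (3.45, SE 0.11, adjusted *p* = 1.6e-06). It was higher by 0.93 in *Ring1A/B*, 0.89 in *Pcgf2/4* and 1.63 in *Pcgf6* cells. *Krt8* was higher by 1.68 in *Ring1A/B*, 0.68 in *Pcgf2/4*, 1.07 in *Pcgf3/5* and 1.79 in *Pcgf6* cells. Whether this differs from the controls of the *Pcgf1* and point mutant lines, where it did not pass, was not tested. *Krt42* was at 97.5 and 115 TPM in ESCs of the *Pcgf2/4* line and 9.89 and 13.9 TPM in its EBs (-3.16, SE 0.18, adjusted *p* = 0.00054), and its log2 fold change was -2.12, -2.55 and -1.94 in *Ring1A/B*, *Pcgf3/5* and *Pcgf6* cells.

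**Figure D5:**
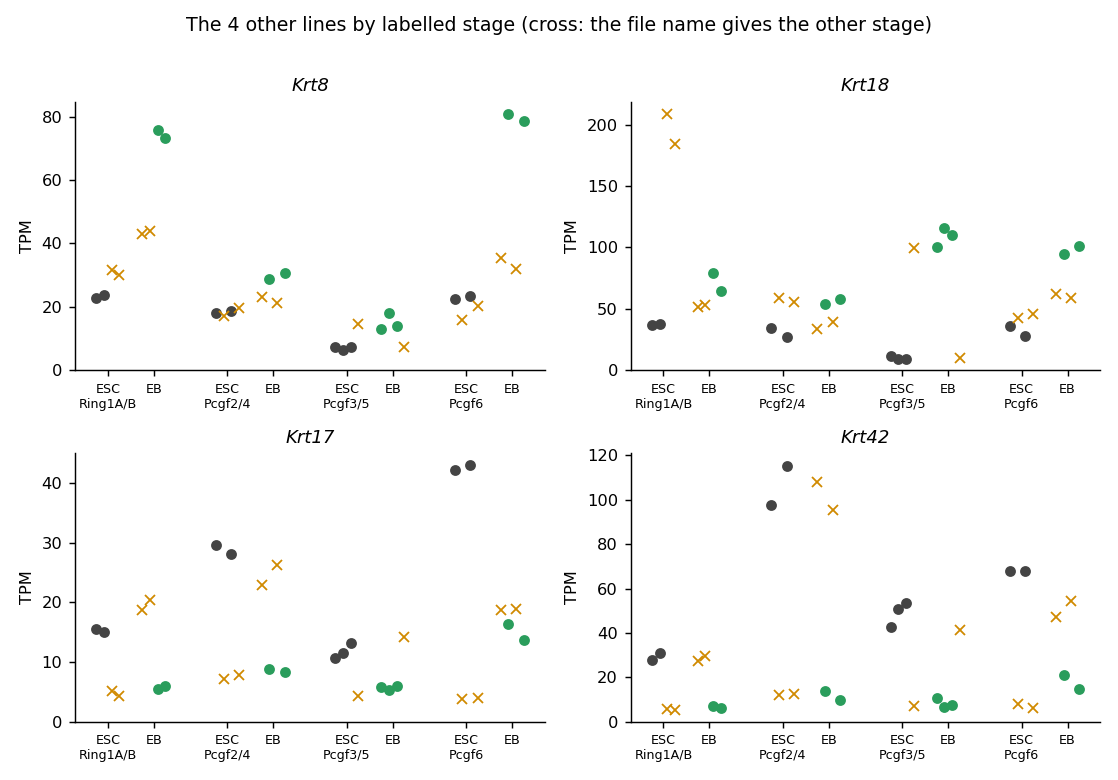
TPM of *Krt8*, *Krt18*, *Krt17* and *Krt42* in the 32 libraries of the 4 other lines by labelled stage, each axis starting at 0. Points are libraries whose file name gives the same stage (ESC grey, EB green) and crosses those whose file name gives the other, and among the points *Krt42* and *Krt17* are lower in EBs of every line.

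*Krt12* was higher in EBs of 3 of these lines and *Krt16* lower in 3. *Krt19* and *Krt7* varied between lines: the log2 fold change of *Krt19* was -2.32 in *Ring1A/B*, -2.12 in *Pcgf3/5* and 1.45 in *Pcgf6* cells, and that of *Krt7* -1.82 in *Ring1A/B* and -2.17 in *Pcgf2/4* cells. In these libraries, 10 keratin genes were higher and 6 lower in *Ring1A/B* (37.2% and 18.8% of all genes), 7 and 4 in *Pcgf2/4* (17.1% and 10.9%), 7 and 6 in *Pcgf3/5* (22% and 19.3%) and 8 and 4 in *Pcgf6* cells (9.4% and 6.84%). The *Ring1A/B* libraries kept are control ESCs and mutant EBs, so stage and 4-OHT cannot be told apart there. In *Pcgf2/4* and *Pcgf6* cells the ESCs kept are all replicate 1 and the EBs all replicate 2. Their file names give control for these ESCs and mutant for these EBs. Stage there cannot be told apart from replicate number or, by file name, from 4-OHT.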

How the data were processed

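RNA-seq of 59 libraries from 6 mouse ESC lines was analysed. The deposited values are TPM per gene symbol, 24391 genes in every library, made by the authors: single-end reads were aligned with STAR 2.5.2b to mm9 and reads on exons were counted, and the submitters' processing notes also name DESeq2. The step from counts to TPM, the gene lengths and the strand setting are not given in the sources used here. Each library sums to 1000000 TPM, so depth is unknown and no counting interval can be given, and a 0 can be a gene with few reads. Of 1711 pairs of libraries, 0 were identical.

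Groups were taken from the sample labels. A *Pcgf1*-KO EB library is numbered 4 in its title and 5 in another label, and the title was used. In 21 libraries of the 4 other lines the file name gives another condition than the label, and for these lines the 14 libraries with another stage were also left out. The keratin genes, their classes, the companion and marker lists and the tests were chosen with earlier results of these data known, and the lists support nothing beyond their own counts.

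TPM plus 0.1 was log2 transformed, and limma 3.58.1 (R 4.3.3, trend option) was fitted per line over its 4 groups and all genes above 0 in at least 1 library, with Benjamini-Hochberg adjustment over these genes. A gene was called at an adjusted *p* under 0.05. Log2 fold changes are on this scale and understate changes of low genes. Where a group is listed at 0 a fitted value depends on the pseudocount. The report gives no fold there, apart from the differences between the lines among the results flagged for a closer look. The 2 lines were compared in 1 fit over their 27 libraries. The fit was tested on simulated data first. Tables were handled with pandas 2.3.3 and numpy 2.4.6 and figures drawn with matplotlib 3.10.9.

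Keratins with a group mean of at least 1 TPM, or called in the *Pcgf1* or point mutant line, are named, and those with a group mean of at least 10 TPM there are given by library. *Krt34*, *Krt71* and *Krt72* were named after their values were seen. In the *Pcgf1* line same-numbered libraries of different groups deviated together (r from 0.317 to 0.653 over 27 pairs). Between other numbers the median was -0.253, but r reached 0.621. These values do not establish that the numbers pair the samples, and the part of the library series in them was not tested. The replicate block takes the numbers as pairs, and values with this block are given where they change a call. The library series were formed here from the leading characters of library identifiers, and identifiers outside the chosen prefixes were put together as the last series.

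The fits were repeated with 1 as the pseudocount, on genes with a mean of at least 1 TPM, with median-of-ratios scaling, with only the 2 groups compared, with the replicate block and without each library. Likeness between keratins was measured as the share of 50-base stretches of a gene's transcripts found in other keratin transcripts, in place of protein identity, which was not computed. Overlaps with other genes were read from the annotation.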

Additional observations from a re-analysis of the deposited data

Results flagged for a closer look

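Of 74 sets of replicates tested for a sample far from the others in the *Pcgf1* line, 10 had one. Chance gives about 1 in 20, but a set with only 1 library above 0 is always flagged. The rate does not apply to such sets, so the count shows no excess. Among the genes with the higher levels these were *Krt42* in control ESC replicate 4 (41.3 TPM), *Krt19* in control EB replicate 2 (0.844 TPM) and *Krt16* in *Pcgf1*-KO ESC replicate 2 (0.591 TPM). The others were low genes, each at 0 in every other library of its group, and so flagged by the form of the test. They were *Krt27* in *Pcgf1*-KO ESC replicate 4 (0.0982 TPM) and *Pcgf1*-KO EB replicate 4 (0.127 TPM), *Krt28* in *Pcgf1*-KO ESC replicate 3 (0.368 TPM) and control EB replicate 5 (0.204 TPM), *Krt12* in *Pcgf1*-KO ESC replicate 5 (0.0971 TPM), *Krt13* in control EB replicate 5 (0.116 TPM) and *Krt1* in *Pcgf1*-KO EB replicate 5 (0.226 TPM).

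Differences between the point mutant line and the *Pcgf1* line passed their own test for 8 named genes. For the change from control ESCs to EBs they were 3.93 for *Krt7*, 3.78 for *Krt19* and -1.60 for *Krt74* on the log2 scale. For mutant against control ESCs they were 3.51 for *Krt7*, 1.43 for *Krt18* and -1.60 for *Krt74*, and for mutant against control EBs 3.96 for *Krt7*, 4.38 for *Krt79*, 4.03 for *Krt4*, 3.45 for *Krt83* and 1.66 for *Krt8*. The values of *Krt74*, *Krt79*, *Krt4* and *Krt83* depend on the pseudocount, since libraries of a group were listed at 0.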

How the results depend on the processing

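Depth is unknown, so values near 0 and calls below 1 TPM are the least certain, and 2 libraries a group limit all lines but *Pcgf1*. The counts below come without the shares of all genes under each alternative, so they compare settings, not keratins with other genes. In the *Pcgf1* line, restricting the test to genes with a mean of at least 1 TPM left 2 keratins higher in control EBs than ESCs, 1 lower in *Pcgf1*-KO ESCs and 1 lower in *Pcgf1*-KO EBs. With only the 2 groups compared 1 was lower in *Pcgf1*-KO ESCs, and a pseudocount of 1 gave 5 lower in *Pcgf1*-KO EBs. With the replicate block 2 were higher in *Pcgf1*-KO ESCs, 6 lower in *Pcgf1*-KO EBs and 2 past the interaction, and the library series as a block, chosen after seeing the data, gave 2 and 7. Leaving out 1 library gave 0 to 2 lower in *Pcgf1*-KO ESCs. The block changed no other count of this line by over 1.5 times.

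In the point mutant line, the mean of at least 1 TPM gave 2 higher and 1 lower for control EBs against ESCs, 0 lower in mutant ESCs and 3 higher in mutant EBs. With only the 2 groups compared there were 0 lower in control EBs, 0 higher and 0 lower in mutant ESCs and 1 higher in mutant EBs, and with a pseudocount of 1 there were 0 lower in mutant ESCs. Leaving out 1 library gave 0 to 1 lower in control EBs, 0 to 2 higher and 0 lower in mutant ESCs, and 0 to 3 higher in mutant EBs. Its numbers 1 and 2 deviated together (r from 0.106 to 0.381), which with 2 numbers does not show a pairing, and the replicate block gave 2 higher in control EBs. For differences between the lines, alternatives chosen after seeing the data, the mean of at least 1 TPM left 2 in mutant ESCs and 2 in mutant EBs, and leaving out 1 library 3 to 7 in mutant EBs.

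In the *Ring1A/B* line the mean of at least 1 TPM gave 7, 9 and 9 calls for control EBs against ESCs, mutant ESCs and mutant EBs, and leaving out 1 library gave 8 to 14 for control EBs against ESCs and 9 to 14 for mutant EBs. For EBs against ESCs over both states, the libraries of agreeing stage gave 16 (*Ring1A/B*), 11 (*Pcgf2/4*), 13 (*Pcgf3/5*) and 12 (*Pcgf6*) calls, against 7, 0, 0 and 2 by label. In *Pcgf3/5* control EBs against ESCs, only the 2 groups compared gave 10 calls and a crossed pairing of the replicate numbers, added after seeing the data, gave 9.

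No named keratin that was called changed sign. Among uncalled ones, *Krt42* in *Pcgf1*-KO ESCs was at -0.18 with the replicate block, -0.16 with the series block and -0.10 to 0.30 without 1 library. *Krt19* was at 0.0030 in *Pcgf1*-KO EBs under median-of-ratios scaling and at -0.33 to 0.0899 there, -0.23 to 0.0449 in *Pcgf1*-KO ESCs and -0.28 to 1.84 in control EBs of the point mutant line without 1 library. *Krt8* ranged from -0.22 to 0.0274 in *Pcgf1*-KO EBs, and *Krt18* in point mutant EBs from -0.0204 to 0.24, and was at -0.0212 under the scaling. Of the values of single genes without 1 library, 1127 kept direction and call, 117 lost a call, 1 gained it and 14 changed sign. The cause was not tested.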

Other observations

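Among keratins below the levels described above, *Krt10*, a keratin of the upper epidermis, was present in every library and passed in no comparison of the *Pcgf1* line (1.09 to 4.39 TPM) or the point mutant line (2.47 to 5.14 TPM). On the other strand the exons of another gene overlap 6.97% of its exon bases. *Krt5*, the partner of *Krt14* in basal cells, had group means of at most 0.125 TPM in the *Pcgf1* line, where *Krt14* was at 0.342 to 2.09 TPM. *Krt1* stood apart in the *Pcgf3/5* line, at 10.9 to 21.7 TPM in the 3 ESC libraries of agreeing stage and 0.473 to 3.03 TPM in the 3 EB libraries (-3.65, SE 0.57, adjusted *p* = 0.0016, limma), while *Krt1* was at 0 to 0.189 TPM in all ESC libraries of the *Pcgf1* line.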
